A study of Mus musculus with 16 samples.

Results

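Cytosolic ribosomal protein genes encode the proteins that join ribosomal RNA to form the ribosome. They were taken as the rows of an expression table whose gene symbol is Rpl or Rps with a number, a P-stalk number or an A, X or L suffix, or is Rpsa, and which reached 1 FPKM in at least 4 libraries. FPKM counts fragments relative to the length of the transcript and to the size of the library. The genes were chosen by symbol and by this level alone, so their level is a description. This gave 78 genes of 39171 features, 47 of the large and 31 of the small subunit. Of the 89 matching rows, 11 stayed under the threshold. These were 9 second rows of symbols already included, Rpl10l, listed at 0 in every library, and Rpl39l, with a highest value of 0.472 FPKM. Just outside the threshold lay the second row of Rpl41, which reached 1 FPKM in 1 library. Just inside it lay Rpl3l, with 6 libraries at 1 FPKM or more, and Rps4l, with 8. The other 76 genes reached 1 FPKM in all 16 libraries.

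The RNA came from astrocytes of 4 C57BL/6 mice, sorted at postnatal day 15 from the thalamus and from the spinal cord (cord below). All mice had the genotype IL-33-mCherry (het)/Aldh1l1-GFP+, so positive and negative cells carried the same alleles and differed in the Il33 reporter by which they were sorted. Each region gave a reporter-positive and a reporter-negative library per mouse, which made 4 groups of 4 libraries. The question was how the reporter state and the region related to the expression of these genes. The sources used here do not give the role of the GFP reporter in the sort. Il33 itself, the alarmin cytokine gene that the reporter follows, had 27.4 ± 3.41 FPKM in positive against 18.6 ± 6.01 FPKM in negative libraries of the thalamus (SD, n = 4). Cord levels were 27.9 ± 3.49 and 24.6 ± 7.93 FPKM, and neither difference passed the test (limma adjusted p = 0.0736 and 0.559).

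The large subunit of the ribosome joins amino acids and holds the tunnel through which the new chain leaves, and the small subunit binds messenger RNA and reads its codons. Each ribosome holds most of these proteins once, and their messenger RNAs are among the most abundant in many cells. Most of these messages in mammals start with a C followed by a run of pyrimidines, the terminal oligopyrimidine (TOP) motif, through which the mTOR pathway and the La-related protein Larp1 control their translation.

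The pyrimidine run is part of the start region of these genes, so 8 start regions are shown: those of 6 genes that were lower in positive libraries in both regions, of Rpl9, with log2 fold changes near 0, and of Rpl3l, the weakly expressed paralog. Each sequence holds 40 bases before and 30 bases after the start in the RefSeq annotation of GRCm38.p6, written 5′ to 3′ on the strand of the gene. Capitals mark runs of at least 8 C or T in this stretch.
Rps10 (chr17:27635215-27635284, minus strand): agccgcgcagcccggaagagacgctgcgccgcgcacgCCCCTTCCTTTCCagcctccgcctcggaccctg
Rpl38 (chr11:114668540-114668609, plus strand): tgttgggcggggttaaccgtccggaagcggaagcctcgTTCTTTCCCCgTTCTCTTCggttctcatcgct
Rps26 (chr10:128626477-128626546, minus strand): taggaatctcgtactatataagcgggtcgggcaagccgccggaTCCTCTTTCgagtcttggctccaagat
Rpl41 (chr10:128549139-128549208, minus strand): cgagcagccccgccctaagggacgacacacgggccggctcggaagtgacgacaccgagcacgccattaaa
Rpl23 (chr11:97782410-97782479, minus strand): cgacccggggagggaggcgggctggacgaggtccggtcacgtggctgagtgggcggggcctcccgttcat
Rps15 (chr10:80292391-80292460, plus strand): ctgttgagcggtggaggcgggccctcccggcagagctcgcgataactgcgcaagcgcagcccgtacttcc
Rpl9 (chr5:65391402-65391471, minus strand): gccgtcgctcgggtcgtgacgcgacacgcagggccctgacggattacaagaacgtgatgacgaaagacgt
Rpl3l (chr17:24727786-24727855, plus strand): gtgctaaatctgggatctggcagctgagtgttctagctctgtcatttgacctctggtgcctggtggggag

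Rps10, Rpl38 and Rps26 held such a run in the stretch shown, and the other 5 did not. In the wider window of 50 bases on either side of the start, the longest run was 10 bases for Rpl41 and Rpl9, 11 for Rps15, 9 for Rpl3l and 6 for Rpl23. RefSeq start regions of 300 bases, 250 before and 50 after the start, were found for 57 of the 78 genes. A run of at least 8 C or T within 50 bases of the start was present in 47 of the 57 (82.5%), against 35.7% of all 27025 start regions. The motif CCGGAAG, searched on both strands, the core sequence bound by ETS factors, stood in 23 of the 57 (40.4%) against 9.12% of all. AAGATGG, the core of the YY1 motif, stood in 7 (12.3%) against 6.48%, and TATAAA in 5 (8.77%) against 14.2%, also on both strands. Of the genes with a start region, 26 of the 33 that were lower in positive libraries of either region or both held the run, and 21 of the other 24.

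Ribosomal protein transcripts were less abundant in reporter-positive than in reporter-negative libraries of both regions. In the thalamus their summed level was 3336 ± 696 FPKM for negative and 1694 ± 147 FPKM for positive libraries (SD, n = 4), while in the cord it was 3710 ± 431 and 2245 ± 153 FPKM. The positive sum was thus 50.8% of the negative one in the thalamus, from 45.2% to 64.2% within single mice, and 60.5% in the cord, from 51.8% to 67.2%. By library, the negative thalamus sums were 2606, 4218, 3515 and 3005 FPKM in mice 1 to 4, and the positive ones 1673, 1908, 1602 and 1593 FPKM. In the cord the negative sums were 4337, 3570, 3584 and 3350 FPKM and the positive ones 2247, 2399, 2296 and 2036 FPKM. Every positive library lay below every negative library of its region. In bulk libraries, fewer cells of a type and less RNA per cell cannot be told apart.

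**Figure D1:**
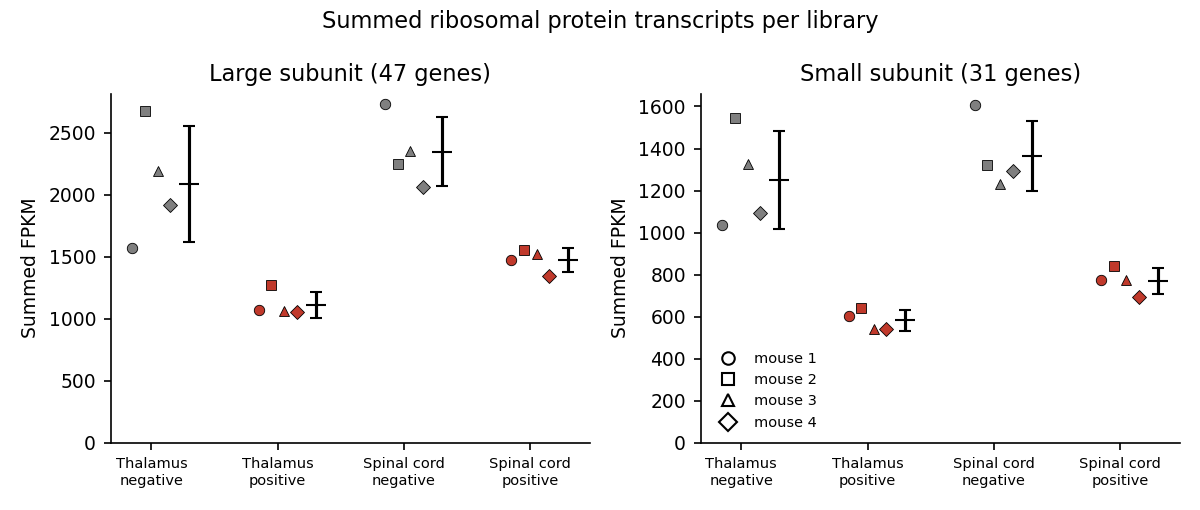
Summed FPKM of the 47 large subunit genes and the 31 small subunit genes in each library (y axis, linear from 0), by group, with symbols for mice and the group mean ± SD beside them (n = 4). In both panels the positive libraries (red) lie below the negative libraries (grey) of the same region, and the negative thalamus libraries spread most.

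Genes of both subunits were less abundant in positive libraries. The large subunit sum was 2087 ± 466 FPKM in negative and 1112 ± 105 FPKM in positive thalamus libraries, and 2347 ± 282 and 1474 ± 93.9 FPKM in the cord (SD, n = 4). The small subunit sum was 1249 ± 233 and 582 ± 49.0 FPKM in the thalamus, and 1363 ± 167 and 771 ± 60.7 FPKM in the cord. The positive sum was 53.3% of the negative one for large and 46.6% for small subunit genes in the thalamus, and 62.8% and 56.5% in the cord. Rpl23a, an abundant large subunit gene, was not lower in positive libraries. Without it the ratio of large to small sums was 1.59 ± 0.12 and 1.73 ± 0.095 in negative and positive thalamus libraries, and 1.64 ± 0.12 and 1.72 ± 0.047 in the cord, and the groups overlapped. The difference between the subunits was not tested.

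The spread between mice was wider in negative than in positive libraries. The median coefficient of variation over the 76 genes present in all libraries in the thalamus was 34.9% for negative and 18.7% for positive libraries, against 28.0% and 14.3% in the cord. All features showed the same order, with a median SD of log2(FPKM + 1) in the thalamus of 0.54 for negative and 0.22 for positive libraries and in the cord of 0.47 and 0.19, against 0.50 and 0.26 and 0.40 and 0.20 for these genes. In the negative thalamus group the library of mouse 1 was the lowest of the 4 for 47 genes and that of mouse 2 the highest for 43. The heatmap of all genes shows these columns as mixed blue and nearly all red.

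**Figure D2:**
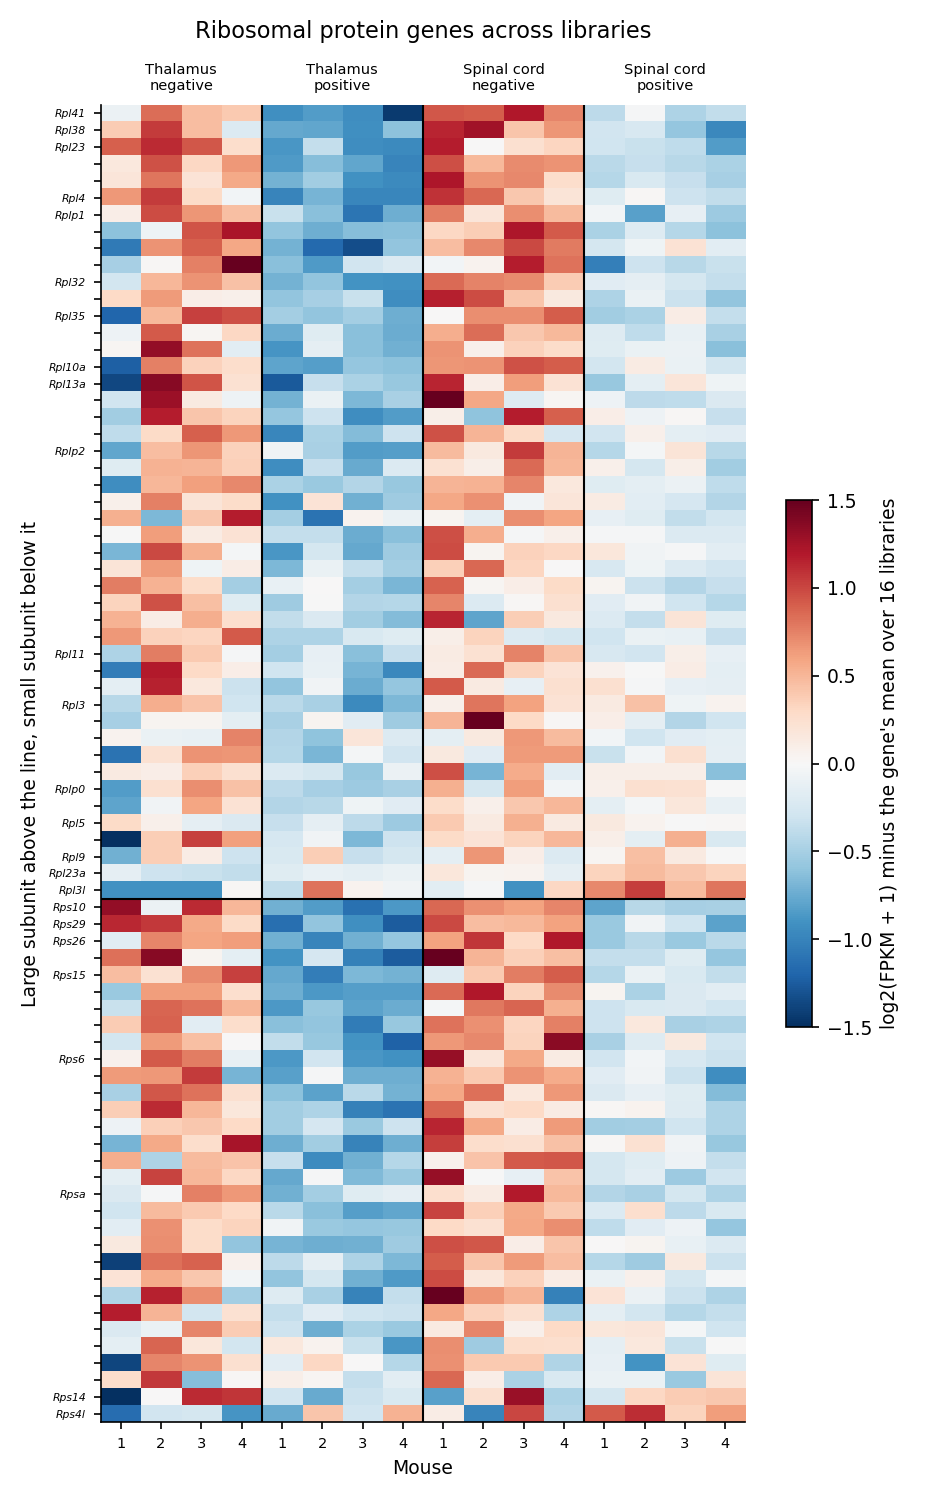
Log2(FPKM + 1) of each of the 78 genes minus its mean over the 16 libraries (colour, from -1.5 in blue to 1.5 in red, values beyond clipped), with libraries in columns by group and mouse and large subunit genes above the horizontal line, and with names given for genes described in the text. Most rows are red in negative and blue in positive columns, and Rpl23a, Rpl3l and Rps4l stand apart.

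Facts of the whole series bear on these values. Mitochondrial transcripts took 43.7% to 73.9% of a library's summed FPKM, with the highest shares in the negative libraries of mouse 1, and the summed FPKM ran from 984986 to 2344483. Sequencing depth is unknown for FPKM, so errors come from the spread between libraries. An SD is that of the 4 libraries of a group. The SE of a fold change rests on a spread shared by all groups, although negative libraries spread more than positive ones. The 8 astrocyte markers summed to 3090 to 3736 FPKM in negative and 3519 to 4080 FPKM in positive thalamus libraries, and to 3816 to 4512 and 5864 to 6162 FPKM in the cord. Single astrocyte markers went both ways. In the thalamus 5 of the 8 had a log2 fold change below 0, with 2 called higher and 1 lower in positive libraries. In the cord 1 was below 0, with 3 called higher and 1 lower. The 6 oligodendrocyte markers, all lower in positive libraries in both regions, summed to 280 to 666 and 42.4 to 64.5 FPKM in the thalamus and to 2478 to 2672 and 102 to 114 FPKM in the cord. The 4 ependymal markers, also all lower, summed to 123 to 198 and 2.197 to 2.633 FPKM in the thalamus and to 16.0 to 31.2 and 2.07 to 2.66 FPKM in the cord, with Tmem212 at 0 in some positive libraries. The 4 neuron markers summed to 21.5 to 66.3 FPKM in negative and 6.74 to 11.6 FPKM in positive thalamus libraries, and to 24.1 to 37.6 and 13.2 to 23.2 FPKM in the cord, with Rbfox3 at 0 in some negative libraries. The 3 endothelial markers summed to 3.26 to 8.16 and 3.22 to 3.83 FPKM in the thalamus, with Cldn5 at 0 in some positive libraries, and to 10.5 to 18.4 and 2.24 to 3.16 FPKM in the cord. The 2 oligodendrocyte precursor markers summed to 1.52 to 3.47 and 0.605 to 1.12 FPKM in the thalamus and to 4.42 to 10.8 and 1.304 to 2.302 FPKM in the cord. Of the 4 microglia markers, only 3 reached 1 FPKM in any library. These 3 summed to 5.68 to 15.7 and 4.56 to 7.48 FPKM in the thalamus and to 6.44 to 12.5 and 2.64 to 3.84 FPKM in the cord. In each region the means of these last 4 lists were lower in positive libraries. The part of these other cells in the results below was not tested.

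In the thalamus, 43 of the 78 genes were lower in positive libraries and 0 were higher, and 74 had a log2 fold change below 0. The test was limma on log2(FPKM + 1) over all features, with a Benjamini-Hochberg adjusted p under 0.05, and a fold change on this scale understates that of weakly expressed genes. Of all 16340 features tested, 13.6% were lower and 11.6% higher, and of the protein-coding ones 16.9% were lower. The median log2 fold change was -0.81 for these genes and 0.06 for all features. Large subunit genes gave 21 of 47 lower with a median of -0.78, and small subunit genes 22 of 31 with a median of -0.89. In 31 genes every positive library lay below every negative one (14.2% of all features), and 51 were lower in 4 of 4 mice. Without both negative libraries of mouse 1, those with the highest mitochondrial shares, 62 genes were lower in the thalamus and 31 in the cord, against 17.6% and 12.0% of all features. Fitted on the thalamus libraries alone, 28 were lower, against 10.3% of all features. With values rescaled to an equal sum without mitochondrial transcripts, which moved the median of all features to 0.25, 23 were lower and 2, Rpl3l and Rpl23a, were higher, against 9.57% and 18.3% of all features. Relative to all features the median was then -0.83, against -0.88 as deposited.

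In the cord, 28 genes were lower and 73 had a log2 fold change below 0. The test called 2 higher, Rpl23a and Rpl3l, of which Rpl3l passed the filter on low values only through its positive cord libraries, so its call carries no weight. Of all features tested, 10.5% were lower and 9.04% higher, and of the protein-coding ones 13.0% were lower. The median log2 fold change was -0.67, against 0.09 for all features. Large subunit genes gave 13 of 47 lower with a median of -0.57, and small subunit genes 15 of 31 with a median of -0.75. In 42 genes every positive library lay below every negative one (14.1% of all features), and 55 were lower in 4 of 4 mice. The count of lower genes was 15 without the positive library of mouse 4, 17 without that of mouse 1 and 18 without that of mouse 3, against 8.08%, 8.53% and 8.15% of all features.

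Most genes that were lower in the cord were also lower in the thalamus, 26 of 28. These 26 were 33.3% of the 78 genes, against 6.46% of all features lower in both, while 17 passed in the thalamus alone, 2 in the cord alone and 31 in neither. The 2 were Rpsa, which encodes a small subunit protein also known as the laminin receptor precursor, and Rpl10a, whose cord call (limma adjusted p = 0.0468) was lost in 10 of 17 other settings. The libraries of the regions are separate, but come from the same 4 mice. Across the 76 genes other than Rpl3l and Rps4l the log2 fold changes of the regions had a Pearson r of 0.70, given as a description.

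**Figure D3:**
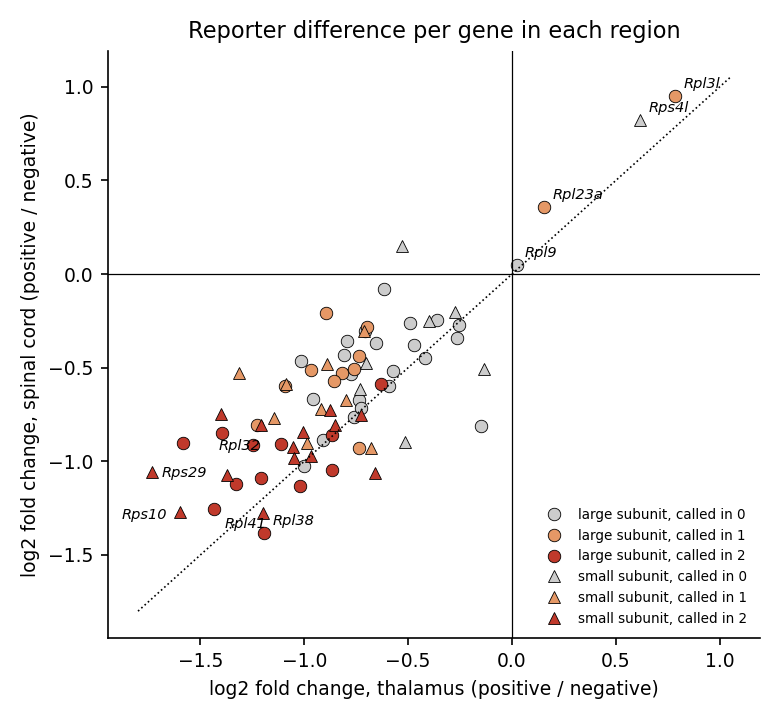
Log2 fold change of positive over negative libraries for each gene in the thalamus (x axis) and the cord (y axis), with circles for large and triangles for small subunit genes and colour for the number of regions in which the gene was called, higher or lower. The dotted line marks equal changes. Most points lie below 0 on both axes, with Rps29, Rps10, Rpl41 and Rpl38 at the far end and Rpl23a and Rpl3l above 0.

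Among large subunit genes, Rpl32 (chromosome 6, 115805505 to 115808747, GRCm38) was at 56.9, 97.9, 111 and 94.0 FPKM in the negative and at 41.8, 45.6, 36.7 and 36.3 FPKM in the positive thalamus libraries of mice 1 to 4. Cord levels of the gene were 125, 117, 114 and 90.3 FPKM in negative and 61.2, 62.7, 57.3 and 53.7 FPKM in positive libraries. The groups did not overlap in either region. Log2 fold changes were -1.11 ± 0.18 (SE) in the thalamus and -0.91 ± 0.18 in the cord (limma adjusted p = 5.9e-04 and 0.0030), and 0 of 17 other settings lost either call.

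Rpl41, which encodes a very short basic peptide, had the highest mean over the 16 libraries, although Rpl23a was higher in positive libraries, with group means of 104 and 150 FPKM against 52.4 and 86.7 FPKM for Rpl41. Rpl41 was at 101, 192, 148 and 140 FPKM in negative and at 55.9, 59.4, 55.5 and 38.9 FPKM in positive thalamus libraries. In the cord it was at 204, 202, 248 and 178 FPKM in negative and at 81.2, 106, 77.1 and 82.6 FPKM in positive libraries. The groups stood well apart, with log2 fold changes of -1.43 ± 0.20 and -1.25 ± 0.20 (SE; limma adjusted p = 1.3e-04 and 4.1e-04).

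Rpl38 is the gene mutated in the Tail-short mouse, whose axial skeleton is malformed. It was at 65.1, 104, 69.2 and 43.3 FPKM in negative and at 28.9, 28.6, 25.8 and 32.3 FPKM in positive thalamus libraries. Cord levels of the gene were 111, 121, 66.7 and 79.7 FPKM in negative and 40.9, 42.2, 33.2 and 25.1 FPKM in positive libraries. It had the largest fall of the cord, -1.38 ± 0.25 (SE; limma adjusted p = 0.0014), and fell by 1.19 on the log2 scale in the thalamus (adjusted p = 0.0036).

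Rpl23, whose protein lies at the subunit interface, was at 92.3, 108, 94.9 and 59.0 FPKM in negative and at 26.3, 37.97, 25.2 and 24.9 FPKM in positive thalamus libraries. The log2 fold change was -1.58 ± 0.25 (SE; limma adjusted p = 4.7e-04). In the cord it was -0.90 (adjusted p = 0.0225), and 3 of 17 other settings lost that call. Rpl4, whose protein lines the exit tunnel, was at 137, 181, 106 and 84.6 FPKM in negative and at 43.2, 53.3, 43.6 and 43.4 FPKM in positive thalamus libraries. It fell by 1.40 on the log2 scale there (adjusted p = 5.8e-04) and by 0.85 in the cord (adjusted p = 0.0187), where 5 of 17 settings lost the call.

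Rpl13a, with a mean of 87.4 FPKM over all libraries, showed how mouse 1 stood apart among negative thalamus libraries, at 28.9 FPKM against 199, 147 and 89.7 FPKM in the other mice. It passed in neither region (limma adjusted p = 0.14 and 0.34).

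The P-stalk of the large subunit recruits the elongation factors and is built from the products of Rplp0, Rplp1 and Rplp2. Only Rplp1 of these 3 passed, in both regions, with 15.4, 29.2, 23.2 and 19.9 FPKM in negative and 11.1, 8.88, 6.15 and 8.18 FPKM in positive thalamus libraries. Its fitted difference was -1.25 ± 0.24 (log2, SE) in the thalamus and -0.91 ± 0.24 in the cord (limma adjusted p = 0.0017 and 0.0141). Rplp2 was at -0.73 and -0.72 (adjusted p = 0.0899 and 0.11) and Rplp0 at -0.61 and -0.08 (adjusted p = 0.128 and 0.876). Rpl5 and Rpl11, whose proteins bind the 5S ribosomal RNA and, when free, the p53 regulator Mdm2, were at -0.36 and -0.57 in the thalamus and at -0.24 and -0.52 in the cord, and neither passed. Whether these genes differed from the rest was not tested.

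Among small subunit genes, Rps29, whose product is a small zinc-binding protein, showed the largest fall of the thalamus. It was at 126, 120, 84.3 and 69.5 FPKM in negative and at 25.4, 37.2, 29.5 and 23.3 FPKM in positive thalamus libraries of mice 1 to 4. Cord levels of the gene were 113, 78.1, 79.6 and 86.2 FPKM in negative and 38.1, 54.6, 45.9 and 32.1 FPKM in positive libraries. No positive library reached the lowest negative one of its region. Log2 fold changes were -1.74 ± 0.23 (SE) in the thalamus and -1.06 ± 0.23 in the cord (limma adjusted p = 7.8e-05 and 0.0042).

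Rps10, whose product is ubiquitinated when ribosomes collide, was at 40.5, 14.6, 35.1 and 22.5 FPKM in negative and at 9.10, 8.28, 6.61 and 8.11 FPKM in positive thalamus libraries. In the cord it was at 29.2, 25.8, 24.3 and 26.5 FPKM in negative and at 8.61, 11.4, 10.7 and 10.8 FPKM in positive libraries. The cord groups were narrow and far apart, while the negative thalamus libraries spread widely. The log2 fold changes were -1.60 ± 0.24 and -1.27 ± 0.24 (SE; limma adjusted p = 3.1e-04 and 0.0019), with the SE taken from a spread shared by all groups.

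Rps26, whose protein sits where messenger RNA leaves the small subunit, was at 28.97, 55.0, 49.9 and 50.9 FPKM in negative and at 19.5, 16.0, 19.4 and 21.5 FPKM in positive thalamus libraries. Cord levels of the gene were 50.1, 69.6, 40.5 and 76.4 FPKM in negative and 21.9, 24.3, 22.0 and 24.5 FPKM in positive libraries. It fell by 1.20 in the thalamus and by 1.27 in the cord on the log2 scale (limma adjusted p = 0.0013 and 8.5e-04). Every positive library lay below every negative one of its region, and every positive cord library lay above every positive thalamus library.

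Rps15, a protein of the head of the small subunit, was at 94.8, 80.4, 113 and 141 FPKM in negative and at 39.95, 32.9, 42.6 and 41.7 FPKM in positive thalamus libraries. It fell by 1.40 there on the log2 scale (limma adjusted p = 4.5e-04) and by 0.75 in the cord (adjusted p = 0.0302), where the groups overlapped and 6 of 17 settings lost the call. Rps6, whose protein is phosphorylated by the S6 kinases, fell by 1.14 in the thalamus (adjusted p = 0.0086) and was at -0.77 in the cord (adjusted p = 0.0693).

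**Figure D4:**
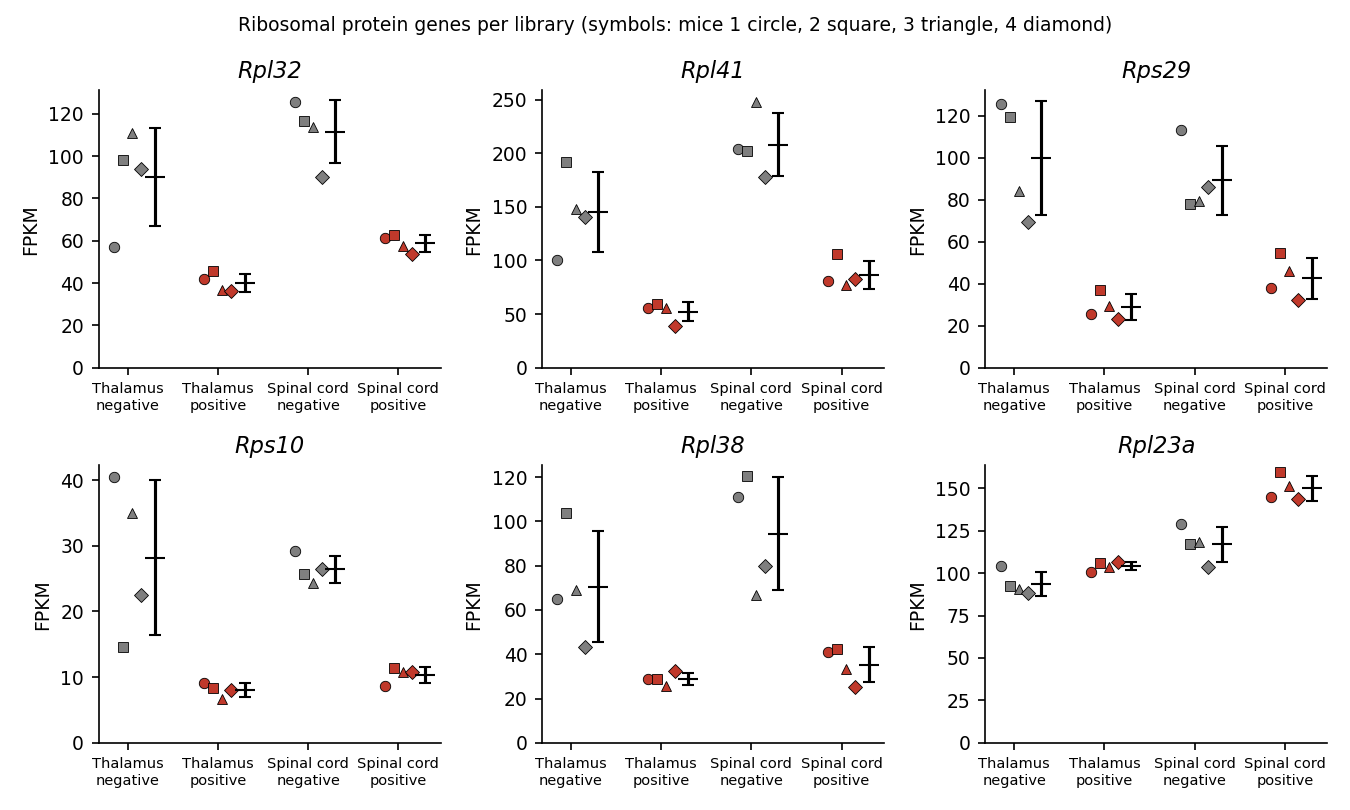
FPKM of 6 ribosomal protein genes in each library (y axes, linear from 0, different scales), by group, with symbols for mice and the group mean ± SD beside them (n = 4). For Rpl32, Rpl41, Rps29, Rps10 and Rpl38 all positive libraries (red) lie below all negative libraries (grey) of the same region, while Rpl23a is higher in positive cord libraries.

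Rpl23a (chromosome 11, 78180932 to 78183584, minus strand), whose protein lies at the tunnel exit where the signal recognition particle docks, went the other way. It was at 104, 92.3, 90.8 and 88.1 FPKM in negative and at 101, 106, 104 and 107 FPKM in positive thalamus libraries, where the groups overlapped. In the cord it was at 129, 117, 118 and 104 FPKM in negative and at 145, 160, 151 and 144 FPKM in positive libraries, with no overlap. The log2 fold change was 0.15 ± 0.11 (SE; limma adjusted p = 0.319) and 0.36 ± 0.11 (adjusted p = 0.0305), and 8 of 17 other settings lost the cord call. Genes that overlap it also had higher means in positive libraries. Snord42a, a small nucleolar RNA gene inside it, was at 8487 ± 1962, 11046 ± 2709, 10389 ± 1324 and 23265 ± 2541 FPKM in negative thalamus, positive thalamus, negative cord and positive cord libraries (SD, n = 4). Snord4a was at 11975 ± 2324, 14375 ± 2073, 13922 ± 4205 and 24305 ± 1094 FPKM in the same order. Tlcd1, on the opposite strand, was at 49.3 ± 7.18, 80.8 ± 7.95, 54.9 ± 4.32 and 129 ± 9.58 FPKM. Reads of overlapping genes may have been shared between them, and the part of this in the values of Rpl23a was not tested.

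Small RNA genes lay inside 31 of the 78 genes. The median log2 fold change of the 31 was -0.82 in the thalamus and -0.67 in the cord, against -0.80 and -0.67 for the others, a difference that was not tested. Genes on the opposite strand overlapped 22 of the 78, and no source used here says that counting used the strand.

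Rpl3l and Rps4l were the least abundant of the 78. Rpl3l, a paralog of Rpl3 known from heart and skeletal muscle, was listed at 0 in 3 negative thalamus libraries and at 0.898 FPKM in the fourth, and at 0.447, 2.304, 0.946 and 0.800 FPKM in positive ones. Cord levels of the gene were 0.672, 0.856, 0 and 1.32 FPKM in negative and 2.08, 2.83, 1.60 and 2.27 FPKM in positive libraries. Of its 6 libraries over 1 FPKM, 4 were positive cord ones, so it passed the filter only through the group in which it is high, and its cord levels are given as a description. Rps4l, annotated as a transcribed processed pseudogene, was at 0 to 0.836 FPKM in negative and 0.303 to 2.15 FPKM in positive thalamus libraries, and at 0.110 to 3.43 and 1.78 to 3.73 FPKM in the cord, and passed in neither region.

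Levels differed more between genes than between groups. Per length, 2 genes had a mean over 100 FPKM, Rpl41 with 123 and Rpl23a with 116 FPKM, 70 lay between 10 and 100 FPKM and 6 lay under 10 FPKM. Other genes with high means were Rpl4 with 97.0, Rpl13a with 87.4 and Rps15 with 75.6 FPKM. The lowest apart from Rpl3l and Rps4l were Rpsa with 5.59, Rps14 with 8.63, Rpl35 with 9.21 and Rplp0 with 9.62 FPKM. The median of the gene means was 30.5 FPKM for the large and 32.3 FPKM for the small subunit. Across genes, the log2 mean level had a Pearson r of -0.07 with log2 exon length (n = 78), and the log2 fold change had an r of 0.28 in the thalamus and 0.20 in the cord with it (n = 76). Rpl9 (chosen after its values were seen) was level across the gates, at 33.4 ± 11.0 and 33.2 ± 8.57 FPKM in negative and positive thalamus libraries and at 39.2 ± 12.1 and 39.6 ± 6.25 FPKM in the cord (SD, n = 4). The 95% intervals of its log2 fold change ran from -0.52 to 0.57 and from -0.50 to 0.59.

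Many ribosomal protein genes have processed pseudogenes, near-identical copies that can take reads from them. By alignment of transcripts at 90% identity or more over at least 80% of the pseudogene, 646 listed pseudogenes matched 67 of the 78 genes. The copies summed to 4.08% to 7.99% of the members' sum in negative and to 16.2% to 24.7% in positive thalamus libraries, and to 2.92% to 8.36% and 11.1% to 14.2% in the cord. The members' sum, by which these shares are divided, was itself lower in positive libraries. In FPKM the copies summed to 135 to 208 in negative and 309 to 395 in positive thalamus libraries. In the cord they summed to 127 to 298 and 250 to 289 FPKM, which overlapped. Of the 85 copies tested, 24 were higher and 2 lower in the positive libraries of the thalamus (median log2 fold change 0.71), and 21 were higher and 0 lower in the cord, with a median of 0.53. Pseudogenes of other genes gave 172 higher and 14 lower of 569, with a median of 0.76, in the thalamus and 72 and 8, with a median of 0.46, in the cord. Some copies, such as Gm16148, Gm11483 and Gm15696, reached 1 FPKM in positive libraries only. Such copies passed the filter only through libraries in which they are high. The counts and medians of tested pseudogenes are therefore given as a description. With the FPKM of its copies added to each gene, the median log2 fold change was -0.72 in the thalamus, with 67 of 78 genes below 0 against 74 without them, and -0.61 in the cord, with 69 below 0 against 73. The sign of some fold changes thus differed once the FPKM of copies was added. FPKM is relative to length, and a copy may differ in length from its gene. The added values therefore do not stand for reads counted to the gene.

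The remaining genes of the translation machinery were described by lists, beside the same background shares. Of all features, 13.6% were lower and 11.6% higher in the thalamus, and 10.5% and 9.04% in the cord. Ribosomal proteins under other names gave 3 of 7 lower in the thalamus, with a median of -0.78, and 1 of 7 in the cord, with a median of -0.57. They were Rpl36al at -1.31, Fau, which encodes ribosomal protein S30 fused to a ubiquitin-like protein, at -1.06, and Gnb2l1, the scaffold RACK1, at -1.02 (limma adjusted p = 5.7e-04, 0.031 and 0.041). Fau fell by 1.39 in the cord (adjusted p = 0.0088). Elongation factors and other TOP genes gave 8 of 13 lower in each region and 0 higher, with medians of -0.92 and -0.77. They included Pabpc1, which binds poly(A) tails, at -1.45 and -0.77, and Eef1a1, which brings charged transfer RNA to the ribosome, at -1.08 and -1.45. The largest fall of the list was that of Vim, which encodes the intermediate filament vimentin and does not act in translation, at -4.16 and -3.54 (adjusted p = 1.3e-07 and 3.7e-07).

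Of 36 initiation factors, 13 were lower in the thalamus and 7 in the cord and 0 were higher, with medians of -0.45 and -0.38. Eif3f at -1.42 and Eif1ax at -1.17 led in the thalamus (limma adjusted p = 0.0064 and 7.2e-04), and the helicase gene Eif4a1 at -1.04 and Eif5b at -0.92 in the cord (adjusted p = 0.021 and 0.016). Among 46 ribosome biogenesis genes, 4 were lower and 1 higher in the thalamus and 3 lower and 1 higher in the cord, with medians of -0.18 and -0.07, shares under the background. Ncl, which encodes nucleolin, at -1.18, and Tsr1 at -1.15 fell in the thalamus, and Ftsj3 rose by 0.88. In the cord Nolc1 at -0.91 and Nop58 at -0.87 fell, and Polr1b, a subunit of RNA polymerase I, rose by 1.16. Of 15 genes that control TOP messages, such as those of the mTOR pathway, 2 were lower in the thalamus, Eif4ebp2 at -1.30 and Rps6ka3 at -0.72, and 0 in the cord. The share in the thalamus was near the 13.6% of all features, and that in the cord under the 10.5%. The medians of the 15 genes were -0.13 and -0.17.

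Mitochondrial ribosomal protein genes, whose products serve the separate ribosome of mitochondria, had medians near 0. Of 77, 6 were lower and 1 higher in the thalamus, with a median of -0.03, and 0 were lower and 3 higher in the cord, with a median of 0.12. All these shares lay under those of all features, 13.6% lower and 11.6% higher in the thalamus and 10.5% and 9.04% in the cord. Mrpl52 at -1.26 and Mrpl34 at -0.96 were lower in the thalamus and Mrpl46 was higher by 0.99 (limma adjusted p = 0.015, 0.011 and 0.011). Mrps18c rose by 1.21 and Mrps10 by 0.91 in the cord (adjusted p = 0.045 and 0.047). No test compared the lists with each other.

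**Figure D5:**
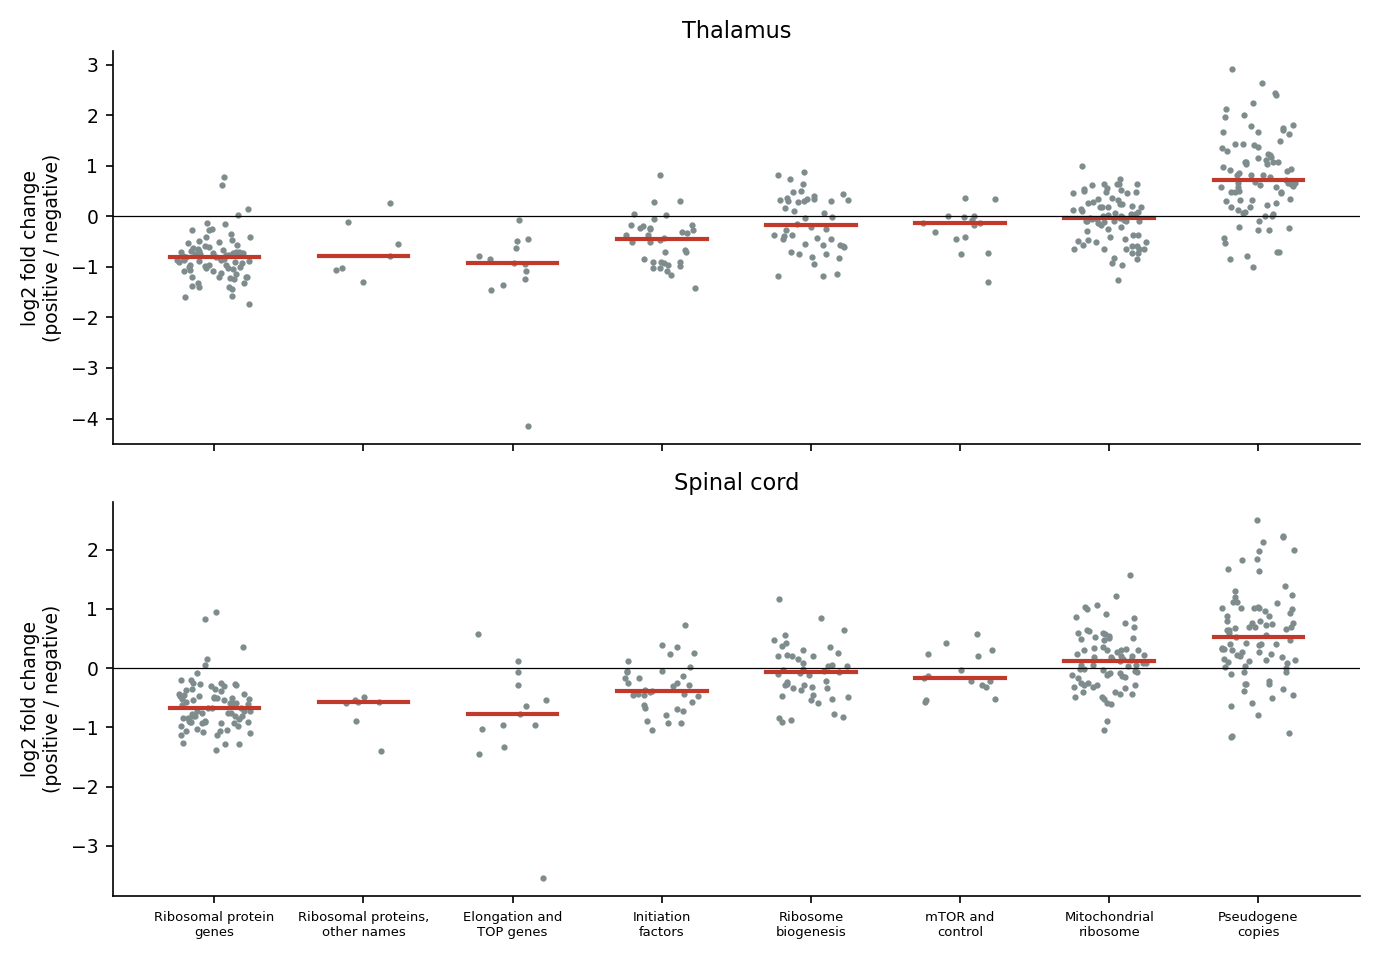
Log2 fold change of positive over negative libraries (y axis) for each gene of 8 sets (x axis), in the thalamus above and the cord below, with a red bar at the median of each set. Cytosolic ribosomal protein genes and elongation and TOP genes lie mostly below 0, mitochondrial ribosomal protein genes lie around 0, and pseudogene copies lie mostly above 0. Some of the copies passed the filter only through positive libraries.

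Between regions, the genes differed less. Among negative libraries 0 of 78 were called in either direction by limma (6 at an unadjusted p under 0.05), with 5.27% of all features higher and 4.54% lower in the cord, and the median log2 fold change of cord over thalamus was 0.19. Within mice the median was 0.80 in mouse 1 and -0.12, 0.01 and 0.13 in mice 2 to 4, and without the negative thalamus library of mouse 1 the pooled value was 0.02.

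Among positive libraries 72 of the 78 genes were above 0, with a median of 0.36 against -0.00 for all features, and the medians within mice were 0.40, 0.34, 0.53 and 0.30. In 24 genes every cord library lay above every thalamus library (15.5% of all features). Only Rpl23a, at 0.52 ± 0.11, and Rpl41, at 0.72 ± 0.20, passed (SE; limma adjusted p = 0.0087 and 0.0432), against 4.22% of all features higher and 1.88% lower. Of 17 other settings, 10 lost the call of Rpl41 and 1 that of Rpl23a. The count depended on which libraries gave the spread. Fitted on the positive libraries alone 25 genes were higher, against 13.8% of all features, and without the negative libraries of mouse 1 there were 8, against 6.37%. With the equal-sum rescaling the median was 0.23, with -0.10 for all features, and 0 genes were called, while any single positive library left out gave 1. In mitochondrial ribosomal protein genes the median of the same comparison was also 0.36, with 2 of 77 called higher, Mrps33 and Mrpl42. Eif3i was the only initiation factor called between regions, higher in the cord by 0.53 among negative and 0.61 among positive libraries (adjusted p = 0.037 and 0.026).

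The difference of the reporter effect between the regions was tested for each gene. None of the 78 passed (0 called, 2 at an unadjusted p under 0.05), against 1.13% of all features higher and 1.43% lower, and the median of the difference, cord minus thalamus, was 0.17, or 0.43 without both negative libraries of mouse 1. The medians of the reporter difference within mice were, for the thalamus, -0.44, -1.03, -1.12 and -0.91 and, for the cord, -0.81, -0.50, -0.60 and -0.70. In mice 2, 3 and 4 the thalamus value was the lower one, and in mouse 1 the cord value. The authors' deposited table of positive against negative comparisons lists 444 rows with an adjusted p of at most 0.00976 and gives fold changes over both regions together, and 0 of the 78 genes are among them. Its threshold and its pooling of the regions differ from those of the counts above, and the processing notes name DESeq2 rather than limma. In the limma fit above, Rpl32, Rpl41, Rps29 and Rps10 had adjusted p-values under 0.00976 in both regions. Why these genes are absent from the authors' rows was not tested.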

How the data were processed

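The authors deposited FPKM values for 16 libraries and a table of their own comparisons with group means in FPKM, a mean normalized signal, log2 fold changes, a test score, p-values and adjusted p-values. Per the submitters' processing notes the tools include TopHat2 2.0.11 and Bowtie2 2.2.3 with the build GRCm38, and HTSeq 0.6.1p1, Cufflinks, Cuffnorm, DESeq2 and FastQC. Per the labels' protocols, RNA was isolated with a Qiagen micro kit and libraries were made with a NuGEN kit. Median-of-ratios factors of the deposited values ran from 1.00 to 1.08, so they may already have been normalized between libraries. Of the features, 16252 had no symbol in the file and 15208 of these were named from a reference table.

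A feature was tested if 4 or more libraries reached 1 FPKM, which 16340 did. On log2(FPKM + 1), limma 3.58.1 (R 4.3.3) was fitted with 1 coefficient per group, a spread shared by all groups and a trended prior. The script was tested on simulated data in which all groups had the same spread. The negative libraries spread more than the positive ones, and the simulation does not cover that case. The threshold was 0.05 after Benjamini-Hochberg adjustment. Replicates are separate mice, and the mouse number was shared by the 4 libraries of an animal, per the labels. Deviations from the group means correlated by 0.036 on average over the 24 same-mouse pairs and by -0.012 over the 72 others. Deviations cancel out within a group, so the second average largely follows from the first and is no separate baseline. Coordinates, gene types and overlaps are those of GENCODE vM21, and pseudogenes were matched with BLAST+ 2.17.0 at an alignment of at least 200 bases.

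The members and lists were chosen with earlier results of these data known. Named by rule were Rpl32, the 6 most and least abundant genes, the 5 called genes with the largest change in each direction of each comparison, genes listed at 0, and the 2 largest called changes of each list. Genes of the stalk, Rpl5, Rpl11, Rps6, Rpl9 and the genes overlapping Rpl23a were added after their values were seen. Some items that the rule takes are not reported here.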

Additional observations from a re-analysis of the deposited data

Results flagged for a closer look

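A sample far from the other 3 of its group was looked for in 88 groups of 4 values, those of named genes and summed levels, and 5 were found, where chance gives about 1 in 20. In 3 of these the positive thalamus library of mouse 2 was the high one. Rpl23 was at 37.97 FPKM there against 24.9 to 26.3 FPKM in the other mice, Rpl4 at 53.3 FPKM against 43.2 to 43.6 FPKM, and the summed large subunit genes at 1268 FPKM against 1050 to 1067 FPKM. Rpl3l was at 0.898 FPKM in the negative thalamus library of mouse 4 and at 0 in the others. Rps14 was at 6.01 FPKM in the positive spinal cord library of mouse 1 against 9.47 to 10.1 FPKM in the rest.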

How the results depend on the processing

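None of the counts, medians and named genes recomputed under the settings given here changed direction, which leaves out the adding of pseudogene copies, where the genes below 0 went from 74 to 67 in the thalamus and from 73 to 69 in the spinal cord. In the thalamus the count of lower genes was 43, and it was 23 with equal sums, 28 on the thalamus libraries alone and 29 to 58 with single libraries left out. It was 58 without the negative library of mouse 1. The count of higher genes there was 0, and it was 1 with a pseudocount of 0.1, 2 with equal sums and 0 to 1 with single libraries left out. The median was -1.003 to -0.733 with single libraries left out. In the spinal cord the count of lower genes was 28, and it was 22 with equal sums (8.91% of all features) and 15 to 25 with single libraries left out. That of higher genes was 0 to 1 then, and 1 with a pseudocount of 0.1, the 5 FPKM filter, no filter, the spinal cord libraries alone, or without both negative libraries of mouse 1. The median was -0.72 to -0.58 with single libraries left out. Among negative libraries 1 gene was lower with the 5 FPKM filter and with protein-coding features only, and 1 was higher without a filter. With single libraries left out 0 to 2 were higher and 0 to 1 lower, and the median was 0.02 to 0.31. Among positive libraries the count of higher genes was 1 without a filter, 0 and a median of 0.23 with equal sums, 25 on these libraries alone, 8 without both negative libraries of mouse 1, and 1 with single libraries left out, with medians of 0.32 to 0.44. The regional difference had 0 calls in every setting run, with a median of 0.17, which was 0.06 to 0.33 with single libraries left out, 0.03 with equal sums and 0.43 without both negative libraries of mouse 1. With mouse as a block, the paired fit gave 45 lower genes in the thalamus, 31 in the spinal cord and 3 higher among positive libraries, and it moved no count by more than 1.5 times. With equal sums, 65.6% of all called features were higher in the thalamus, against 45.9% as deposited. Leaving out both negative libraries of mouse 1 and restricting to protein-coding features were chosen after seeing the data. The causes were not tested. Depth is unknown for these values.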
